A study of Mus musculus with 12 samples.

Results

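Skeletal muscle genes were read in bulk RNA-seq of mouse spinal cord, a tissue that contains no striated muscle fibres, as a gauge of muscle RNA in the dissected pieces. The set was a list of 35 names covering the sarcomere, calcium handling and energy supply of muscle fibres. Of these, 34 were found by name in the authors' FPKM table and joined by Ensembl identifier to the 37991 genes of the count table. Acta1, skeletal muscle actin, has no entry under that name in the FPKM table. It was read from the count table through its Ensembl identifier and is described beside the 34, outside their counts.

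All 12 mice were adult C57bl/6J animals over 8 weeks old and had 1 genotype, a cross of Glast-CreERT2, the R26R-YFP reporter and Rasless, so the controls carried every allele too. In this line tamoxifen activates a Cre recombinase driven by the Glast promoter, which the series uses to act on type A pericytes. The 3 groups of 4 were uninjured cord segments (mice 376, 377, 385 and 467, injection labelled vehicle), vehicle lesions (402, 428, 429 and 457) and tamoxifen lesions (452, 513, 549 and 564). Lesions were dorsal hemisections at high thoracic level, dissected at day 14. Tamoxifen was given at 2 mg on each of 5 days, with 7 clearing days before surgery, and vehicle mice received the solvent. The series describes scarring by pericyte-derived cells as dense in the vehicle lesions and attenuated in the tamoxifen lesions.

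Skeletal muscle fibres contract when myosin thick filaments pull on actin thin filaments inside the sarcomere. Calcium released through the ryanodine receptor binds troponin and opens the thin filament to myosin. Fibres differ in the myosin heavy chain they use: Myh7 marks slow fibres, Myh2 and Myh1 the fast oxidative and intermediate types, and Myh4 the fastest glycolytic type. Myh3 and Myh8 encode the embryonic and perinatal myosins, which developing and regenerating fibres use.

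Library totals ran from 7967970 to 12581324 counts. Levels are CPM, counts scaled to library size and TMM factors, and differences are log2 changes between group means from edgeR's quasi-likelihood fit of 16473 genes, with p-values adjusted by Benjamini-Hochberg over all of them (threshold 0.05). Of the 34 members, 31 passed the filter on low counts. Myl2, Tnnc1 and Tnnc2 did not, and the filter keeps a gene that is high in 1 group alone, so counts over the 31 describe the genes tested and not the full list. Neurons and oligodendrocytes were represented in every library: 10 of their markers summed to between 14570 and 18400 CPM. In bulk tissue fewer cells of a type and less RNA per cell cannot be told apart.

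Muscle transcripts were concentrated in 5 of the 12 libraries. The 34 members took 0.0232%, 0.156%, 0.0453% and 0.0233% of all counts in uninjured libraries 376, 377, 385 and 467. Vehicle libraries 402, 428, 429 and 457 gave 0.0680%, 0.0231%, 0.0608% and 0.127%. Tamoxifen libraries 452, 513, 549 and 564 gave 0.0250%, 0.0213%, 0.0209% and 0.0196%. Uninjured library 377 and vehicle library 457 were the fullest, and vehicle library 428 lay inside the range of the tamoxifen group. The widest 95% Wilson interval among the low libraries, which covers counting error only, ran from 0.0239% to 0.0261% in library 452, so the fuller libraries stand apart beyond counting error.

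Most of the sum in the low libraries came from 1 gene, Pygm, the muscle form of glycogen phosphorylase. Without Pygm the summed level was 61.8 to 97.3 CPM in the 4 tamoxifen libraries, 88.6 CPM in vehicle library 428, and 76.4 and 80.2 CPM in uninjured libraries 376 and 467. Libraries 385, 429, 402, 457 and 377 held 285, 461, 542, 1109 and 1354 CPM. The step from the low libraries to the next was thus from 97.3 to 285 CPM.

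**Figure D1:**
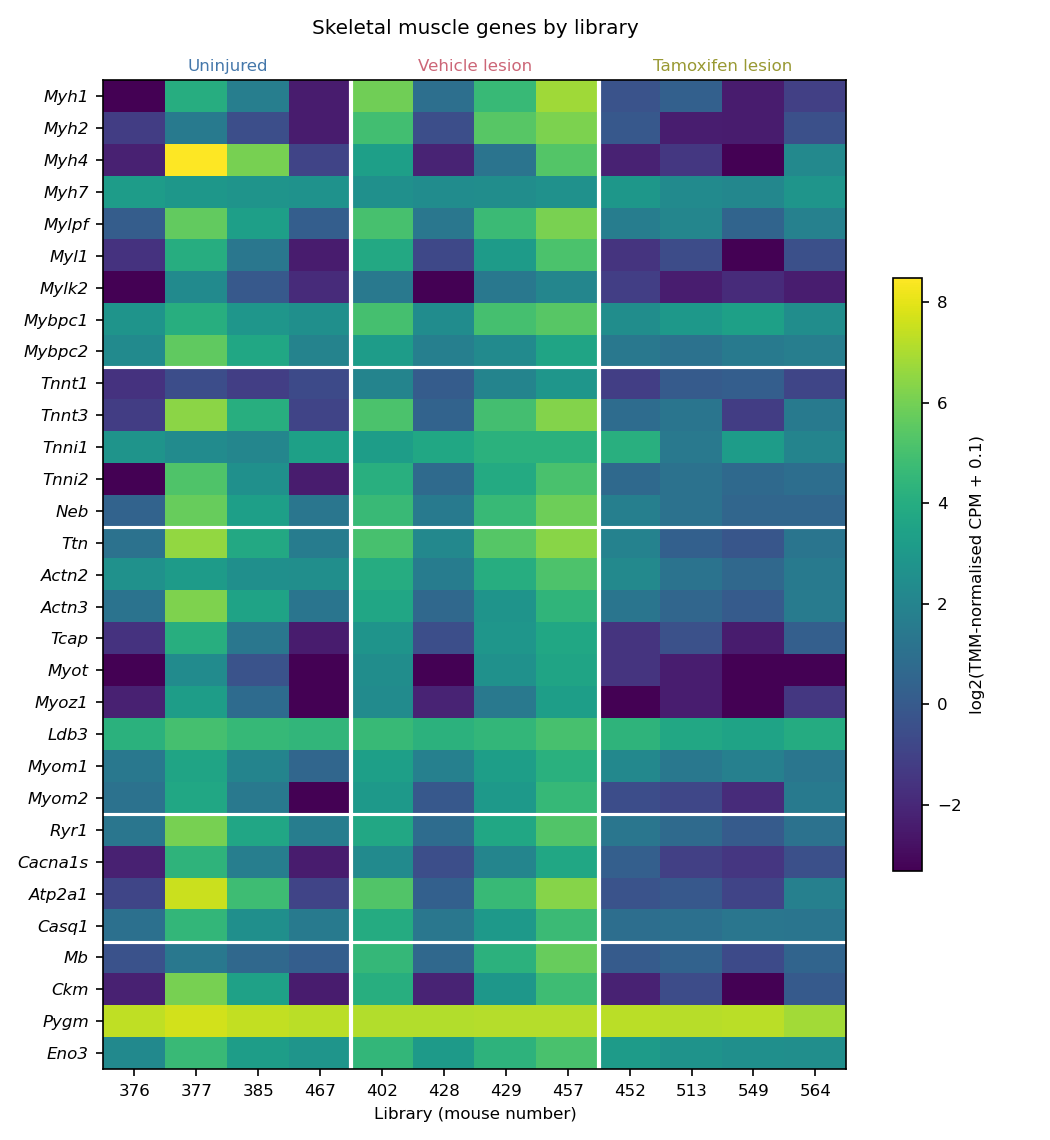
Level of each of the 31 members tested (rows, ordered by role and separated by white lines) in each of the 12 libraries (columns, by mouse number and group), as log2 of TMM-normalised CPM with 0.1 added. Libraries 377, 385, 402, 429 and 457 are bright in most rows, while Pygm, Ldb3 and Myh7 are nearly even across all libraries.

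Members varied between mice of a group far more than other genes did. The median SD of log2 CPM within the uninjured group was 2.38 over the 31 members and 0.125 over all genes tested. In the vehicle group it was 1.85 against 0.151, and in the tamoxifen group 0.729 against 0.185. Of the 31 members, 27, 28 and 22 lay above the 90th percentile of all genes in the uninjured, vehicle and tamoxifen groups. Tamoxifen lesions were therefore the most even group for these genes, at low levels.

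The 4 myosin heavy chains followed different patterns. Myh4 stood at 0.115, 356, 65.9 and 0.439 CPM in uninjured libraries 376, 377, 385 and 467. It was at 10.04, 0.123, 2.20 and 39.5 CPM in vehicle libraries 402, 428, 429 and 457. Tamoxifen libraries 452, 513, 549 and 564 held 0.120, 0.280, 0 and 4.59 CPM. The 2 highest values were both uninjured, and the 3 groups overlapped. The log2 change of Myh4 in vehicle against uninjured was -2.96 (SE 1.45, adjusted p = 0.105), and in tamoxifen against uninjured it was -6.34 (SE 1.93, adjusted p = 0.0164). Without library 377 the latter was -4.11 with an adjusted p of 0.0862, and without library 564 it was -9.54. Tamoxifen against vehicle gave -3.38 (SE 2.06, adjusted p = 0.268).

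Myh2 had the opposite order between uninjured and vehicle pieces. It was at 0.344, 2.74, 0.615 and 0.0878 CPM in uninjured libraries 376, 377, 385 and 467. Vehicle libraries 402, 428, 429 and 457 held 29.7, 0.617, 43.1 and 71.8 CPM. In tamoxifen libraries 452, 513, 549 and 564 it was at 0.839, 0.0932, 0.0867 and 0.643 CPM. The 3 muscle-rich vehicle libraries were above every other library, and vehicle library 428 was among the low ones. Myh2 rose in vehicle against uninjured by 5.20 on the log2 scale (SE 1.00, adjusted p = 0.000888), from 4.62 without library 457 to 6.66 without 377. It was lower in tamoxifen than in vehicle by a log2 change of -6.52 (SE 1.16, adjusted p = 0.0050), from -7.01 without 452 to -5.94 without 457. Tamoxifen against uninjured gave -1.32 (adjusted p = 0.537), and 0.146 without library 377.

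Myh1 resembled Myh2. It was at 0, 16.2, 3.25 and 0.0878 CPM in uninjured libraries 376, 377, 385 and 467. Its vehicle values were 59.5, 1.85, 24.8 and 111 CPM in 402, 428, 429 and 457, and its tamoxifen values were 0.719, 1.118, 0.0867 and 0.367 CPM in 452, 513, 549 and 564. Every tamoxifen library lay below every vehicle library. Myh1 rose in vehicle against uninjured by 3.30 (SE 1.06, adjusted p = 0.0198), a call lost without library 385 (adjusted p = 0.0596) or 457 (adjusted p = 0.0866), and the change was 5.38 without 377. It was lower in tamoxifen than in vehicle by -6.45 (SE 1.43, adjusted p = 0.0124), from -7.06 without 513 to -5.66 without 457. Tamoxifen against uninjured gave -3.16 (adjusted p = 0.130), and -1.08 without 377.

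Myh7, the slow and cardiac beta myosin, did not follow the others. Its level was 9.18, 7.54, 6.68 and 6.41 CPM in uninjured libraries 376, 377, 385 and 467, between 5.31 and 6.19 CPM in the 4 vehicle libraries, and between 4.34 and 7.55 CPM in the 4 tamoxifen libraries. The muscle-rich libraries did not stand out. None of the 3 comparisons passed the threshold (log2 changes of -0.38, 0.05 and -0.33 for vehicle against uninjured, tamoxifen against vehicle and tamoxifen against uninjured, adjusted p = 0.108, 0.877 and 0.162). Of its reference transcript sequence, 22.9% of the 31-base words also occur in other genes, nearly all in Myh6.

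The makeup of the myosin transcripts differed between the muscle-rich libraries. Of the counts on Myh1, Myh2, Myh4 and Myh7 together, Myh4 made up 93.1% (95% Wilson interval 92.3 to 93.8) of 4460 in uninjured library 377 and 86.2% (83.8 to 88.3) of 870 in uninjured library 385. In the vehicle libraries its share was 9.54% (7.86 to 11.5) of 985 in 402, 2.92% (1.97 to 4.31) of 821 in 429 and 17.3% (15.9 to 18.7) of 2918 in 457. The intervals of 377 and 385 did not touch those of 402, 429 and 457. In uninjured libraries 376 and 467, with 84 and 80 such counts, Myh4 had 1.19% (0.211 to 6.44) and 6.25% (2.70 to 13.8), which overlapped vehicle libraries. Myh7 held 80 and 73 of those counts, so these low shares rest on few counts of the fast chains. Per transcript length, in the authors' FPKM, the Myh4 shares were 90.6% and 81.0% in 377 and 385 and 5.41%, 2.84% and 10.6% in 402, 429 and 457.

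Myh1 and Myh2 took the place of Myh4 in the vehicle libraries. Myh1 had 56.6%, 32.9% and 48.6% of the family's counts in 402, 429 and 457, and Myh2 had 28.2%, 57.1% and 31.4%. In uninjured libraries 377 and 385, Myh1 had 4.24% and 4.25% and Myh2 had 0.718% and 0.805%. Library 564 was the 1 tamoxifen library with at least 100 such counts (138), and Myh7 led there with 55.8%, followed by Myh4 with 36.2%. The level of Myh7 was nearly even across libraries, so its share is large where the other chains are few. Of the 78 counts on Myh1, Myh2, Myh4, Myh3 and Myh8 in 564, Myh4 had 64.1% (53.0 to 73.9). In the 6 remaining libraries the family had 52 to 84 counts, most of them on Myh7.

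A ratio of Myh2 to Myh4 counts in each library (0.5 added to each) was chosen after these values were seen. Its log2 was 1.22, -7.00, -6.65 and -1.87 in uninjured libraries 376, 377, 385 and 467 and 1.56, 1.87, 4.26 and 0.861 in vehicle libraries 402, 428, 429 and 457. Uninjured library 376, with 3 and 1 counts on these genes, overlapped the vehicle group, and vehicle library 428 had 5 and 1 counts. Vehicle minus uninjured was 5.71 (means 2.14 ± 1.48 and -3.57 ± 3.96, SD, n = 4). Tamoxifen minus vehicle was -2.16 and tamoxifen minus uninjured 3.56. The ratio was built from genes already seen to differ in these libraries, so no p-value is given. Reads of these genes are not fully separable: 37.9% of the 31-base words of Myh1, 32.8% of those of Myh2 and 30.4% of those of Myh4 occur in other genes, most often in each other.

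**Figure D2:**
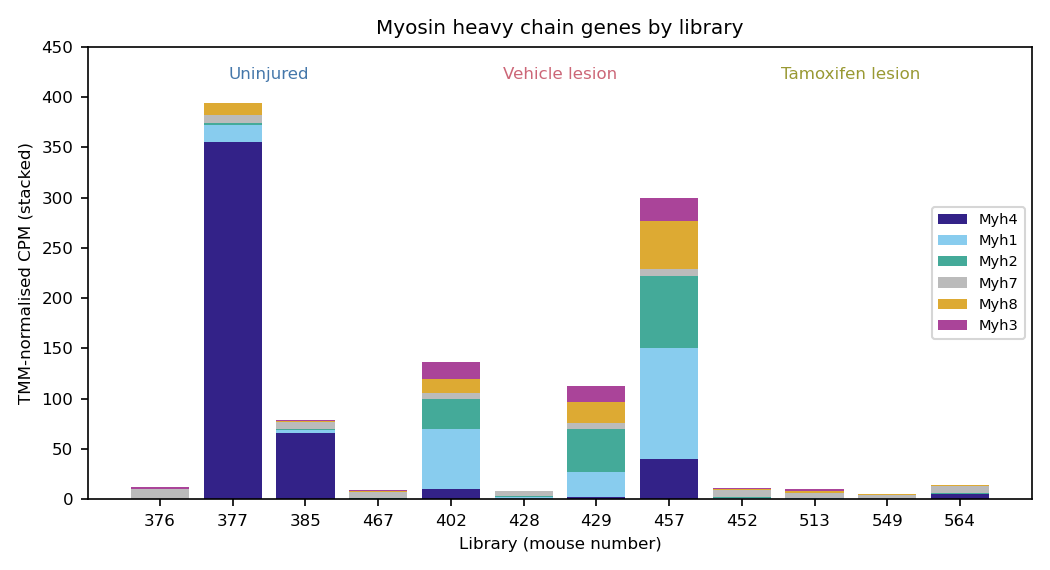
Stacked TMM-normalised CPM of 6 myosin heavy chain genes (y axis) in each of the 12 libraries (x axis, mouse number). Myh4 fills most of the bar of uninjured libraries 377 (356 CPM) and 385 (65.9 CPM), while Myh1, Myh2, Myh8 and Myh3 fill most of the bars of vehicle libraries 402, 429 and 457.

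The fast myosin genes lie side by side on chromosome 11, and the 250 bases before the start of each are shown because their transcripts behaved differently in the same libraries. They are from RefSeq, build GRCm38.p6, plus strand, 5′ to 3′, and the promoter of Ckm, muscle creatine kinase, on chromosome 7 is shown for comparison. Capitals mark matches on either strand to CANNTG (the E-box letters read by myogenic helix-loop-helix factors such as Myod1 and Myog), to TATAAA and to the MEF2 motif. The MEF2 match in Myh4 and Myh1 contains TATAAA on its other strand.
Myh4, chr11:67237562-67237811: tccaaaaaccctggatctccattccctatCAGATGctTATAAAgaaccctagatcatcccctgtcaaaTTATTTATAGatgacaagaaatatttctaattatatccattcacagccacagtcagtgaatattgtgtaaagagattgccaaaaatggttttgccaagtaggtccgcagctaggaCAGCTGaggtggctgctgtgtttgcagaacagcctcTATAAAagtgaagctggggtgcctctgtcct
Myh1, chr11:67199852-67200101: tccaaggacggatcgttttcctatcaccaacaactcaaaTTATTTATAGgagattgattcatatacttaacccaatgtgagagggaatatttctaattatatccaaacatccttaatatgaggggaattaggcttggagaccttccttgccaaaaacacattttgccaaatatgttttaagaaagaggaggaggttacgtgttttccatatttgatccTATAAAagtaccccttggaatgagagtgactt
Myh2, chr11:67170777-67171026: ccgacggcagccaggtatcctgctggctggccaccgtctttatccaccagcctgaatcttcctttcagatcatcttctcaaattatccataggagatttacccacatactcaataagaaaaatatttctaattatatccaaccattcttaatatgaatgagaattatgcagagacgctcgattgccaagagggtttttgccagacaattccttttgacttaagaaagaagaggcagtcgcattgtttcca
Ckm, chr7:19410844-19411093: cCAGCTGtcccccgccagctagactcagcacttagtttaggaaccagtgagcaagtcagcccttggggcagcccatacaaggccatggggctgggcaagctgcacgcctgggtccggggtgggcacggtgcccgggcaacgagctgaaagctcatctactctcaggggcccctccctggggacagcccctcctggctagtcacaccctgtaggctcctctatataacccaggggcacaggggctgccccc

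In these windows Myh4 has 2 CANNTG matches and 1 MEF2 match, Myh1 has 1 MEF2 match and no CANNTG match, and Myh2 has no match to any of the 3. Over the 25 members with a promoter entry, CANNTG occurred in 21 (84.0%), against 66.0% of 27025 mouse promoter windows of the same length. The narrower CAGCTG, contained in CANNTG, occurred in 10 of 25 (40.0%) against 12.8%. TATAAA occurred in 4 (16%) against 12.97%, the MEF2 motif in 3 (Ttn, Myh1 and Myh4; 12%) against 1.73%, and the CArG motif of serum response factor in 3 (Myh4, Ldb3 and Myom1; 12%) against 1.40%. These are matches of letters and no measure of binding.

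The other thick filament members were light chains, a light chain kinase and the myosin binding proteins C. Mybpc1, the slow isoform, was at 6.77, 16.8, 7.29 and 5.79 CPM in uninjured libraries 376, 377, 385 and 467. It was at 32.1, 5.31, 31.9 and 41.9 CPM in vehicle libraries 402, 428, 429 and 457, and at 5.39, 7.83, 10.4 and 5.33 CPM in tamoxifen libraries 452, 513, 549 and 564. The same 3 vehicle libraries were high and the groups overlapped through library 428. Mybpc1 rose in vehicle against uninjured by 1.60 (SE 0.49, adjusted p = 0.0159; 0.0558 without 457). Tamoxifen against vehicle was -1.94 (SE 0.50, adjusted p = 0.0236), a call lost without 429, 457, 513 or 564 (adjusted p of 0.0502, 0.0646, 0.0614 and 0.0723).

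Mybpc2, the fast isoform, was highest in uninjured pieces. Its uninjured levels were 4.94, 47.8, 13 and 3.78 CPM in 376, 377, 385 and 467, its vehicle levels 9.08, 3.33, 4.87 and 11.6 CPM in 402, 428, 429 and 457, and its tamoxifen levels 2.52, 2.05, 2.78 and 3.21 CPM in 452, 513, 549 and 564. Every tamoxifen library was below every library of the other groups. It was lower in tamoxifen than in uninjured pieces by a log2 change of -2.72 (SE 0.73, adjusted p = 0.00833), and of -1.46 without library 377 (adjusted p = 0.0296). Tamoxifen against vehicle gave -1.47 (adjusted p = 0.189). Of the counts on both binding proteins, Mybpc1 had 26.0% (23.0 to 29.2) in 377 and 35.9% (30.02 to 42.3) in 385, against 77.9% (73.5 to 81.8), 86.8% (83.1 to 89.7) and 78.3% (75.1 to 81.3) in 402, 429 and 457. High shares were not limited to those libraries: tamoxifen libraries 513 and 549 had 79.3% (70.6 to 85.9) and 79.0% (71.8 to 84.7), and uninjured libraries 376 and 467 had 57.8% (48.2 to 67.0) and 60.6% (51.2 to 69.2).

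The light chain genes Mylpf and Myl1 and the kinase Mylk2 were high in the 5 muscle-rich libraries. Mylpf reached 68.6 CPM in 457 and 49.6 CPM in 377, and Myl1 reached 35.04 and 16.3 CPM. Mylk2 ranged from 0 to 4.89 CPM, highest in 377. Of the 3, Myl1 alone passed the test in any comparison, at -5.31 (SE 1.48, adjusted p = 0.0302) in tamoxifen against vehicle. That call was lost without 402, 457, 513, 549 or 564 (adjusted p between 0.0502 and 0.0811). Myl2, the slow and ventricular light chain, had 2 to 18 counts in each library, the most in 457, 429 and 402, and was not tested.

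Troponin T, which ties the troponin complex to tropomyosin, has a slow isoform, Tnnt1, and a fast one, Tnnt3. Tnnt1 was at 0.230, 0.600, 0.352 and 0.527 CPM in uninjured libraries 376, 377, 385 and 467. It was at 3.85, 0.988, 3.86 and 7.13 CPM in vehicle libraries 402, 428, 429 and 457, and at 0.360, 0.932, 1.04 and 0.459 CPM in tamoxifen libraries 452, 513, 549 and 564. All vehicle libraries exceeded all uninjured ones, library 428 included. Tnnt1 rose in vehicle against uninjured by 3.18 (SE 0.54, adjusted p = 0.000366), from 2.70 without 457 to 3.46 without 428. In tamoxifen against vehicle it was lower by -2.48 (SE 0.50, adjusted p = 0.00835), from -2.78 without 428 to -2.02 without 457. Tamoxifen against uninjured gave 0.69 (adjusted p = 0.400).

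Tnnt3 was at 0.344, 85.8, 16.6 and 0.439 CPM in uninjured libraries 376, 377, 385 and 467. Its vehicle levels were 34.8, 1.23, 30.8 and 77.6 CPM in 402, 428, 429 and 457, and its tamoxifen levels 1.68, 2.33, 0.347 and 2.76 CPM in 452, 513, 549 and 564. High uninjured and vehicle libraries reached similar levels, and the groups overlapped. Vehicle against uninjured gave 0.49 (SE 1.09, adjusted p = 0.739), and -0.22 without 457. Tamoxifen against vehicle gave -4.36 (SE 1.45, adjusted p = 0.0571). Tnnt3 was lower in tamoxifen than in uninjured pieces by -3.88 (SE 1.45, adjusted p = 0.0418), a call that was lost when any 1 of 377, 385, 402, 429, 452, 513, 549 or 564 was left out (adjusted p between 0.0515 and 0.309, the latter without 377). The share of Tnnt1 in the counts of the pair was 0.694% (0.337 to 1.43) in 377 and 2.07% (0.809 to 5.21) in 385, against 9.95% (7.27 to 13.5), 11.1% (8.35 to 14.7) and 8.42% (6.91 to 10.2) in 402, 429 and 457. Uninjured libraries 376 and 467, with 5 and 11 such counts, had higher shares of 40.0% (11.8 to 76.9) and 54.55% (28.0 to 78.7).

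The inhibitory troponins did not move alike. Tnni2, the fast isoform, was at 36.9 CPM in 377 and 34.2 CPM in 457 and at most 2.05 CPM in the tamoxifen libraries, and it passed no comparison. Tnni1, the slow isoform, ranged from 2.61 to 18.5 CPM over all libraries, and low-muscle libraries 452 (17.3 CPM) and 428 (12.8 CPM) exceeded muscle-rich 377 (5.06 CPM). It passed no comparison either. Tnni1 had 12.1% (9.47 to 15.3) of the counts of the pair in 377 and 41.4% (32.8 to 50.5) in 385, against 35.7% (30.1 to 41.9), 56.0% (50.8 to 61.0) and 35.1% (31.6 to 38.8) in 402, 429 and 457. Library 385 lay within the vehicle range, so this pair did not separate the muscle-rich uninjured and vehicle libraries.

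Troponin C, the calcium sensor, could not be tested from the counts. Tnnc2, its fast isoform, had at most 1 count in any library, yet the authors' FPKM for it were 0.884, 103, 15.97 and 1.06 in uninjured libraries 376, 377, 385 and 467. They were 47.4, 1.89, 49.6 and 111 in vehicle libraries 402, 428, 429 and 457, and 3.72, 1.76, 0.148 and 4.21 in tamoxifen libraries 452, 513, 549 and 564. In FPKM Tnnc2 was thus among the 3 highest members in 377 and the highest in 457, with the same high libraries as Tnnt3. Tnnc1, the slow and cardiac isoform, is listed under 2 identifiers with at most 2 counts in any library. One identifier held FPKM of 1.34 to 5.39 in the 9 libraries with sample names below 106 and near 0 in libraries 513, 549 and 564 (sample names from 106), where the other identifier held 0.924 to 1.30. Tnnc1 and Tnnc2 values therefore depend on the table read.

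Neb, nebulin, runs along the thin filament. It was at 1.26, 53.1, 9.93 and 2.37 CPM in uninjured libraries 376, 377, 385 and 467. Vehicle libraries 402, 428, 429 and 457 held 25.0, 2.84, 24.9 and 57.9 CPM, and tamoxifen libraries 452, 513, 549 and 564 held 3.36, 2.05, 1.39 and 1.38 CPM. Library 452 overlapped vehicle library 428. Neb was lower in tamoxifen than in vehicle by -3.81 (SE 1.116, adjusted p = 0.0370) and than in uninjured by -3.08 (SE 1.124, adjusted p = 0.0376). The first call was lost without 402, 429, 457, 513, 549 or 564 (adjusted p between 0.0580 and 0.102). The second was lost without 377 (adjusted p = 0.310; change -1.22), 513, 549 or 564 (between 0.0802 and 0.0899). Vehicle against uninjured gave 0.73 (adjusted p = 0.524).

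Acta1, which forms the thin filament itself, was at 1.61, 187, 32.8 and 1.23 CPM in uninjured libraries 376, 377, 385 and 467. It was at 93.9, 2.35, 82.1 and 188 CPM in vehicle libraries 402, 428, 429 and 457, and at 2.88, 6.24, 1.47 and 7.72 CPM in tamoxifen libraries 452, 513, 549 and 564. The fullest uninjured and vehicle libraries were nearly equal, and library 428 was within the tamoxifen range. Acta1 changed by 0.72 in vehicle against uninjured (SE 1.118, adjusted p = 0.623), by -4.32 in tamoxifen against vehicle (SE 1.41, adjusted p = 0.0540) and by -3.60 in tamoxifen against uninjured (SE 1.40, adjusted p = 0.0487). The last call was lost without any 1 of 9 libraries, with an adjusted p of up to 0.391 without 377, where the change was -1.40.

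Titin, the giant spring that runs from the Z disc to the M band, is encoded by Ttn. It stood at 2.07, 95.6, 14.0 and 2.99 CPM in uninjured libraries 376, 377, 385 and 467. Its vehicle levels were 33.3, 4.44, 41.3 and 83.6 CPM in 402, 428, 429 and 457, and its tamoxifen levels 3.60, 1.118, 0.780 and 2.30 CPM in 452, 513, 549 and 564. Every tamoxifen library was below every vehicle library, by a narrow margin between 452 and 428. Ttn was lower in tamoxifen than in vehicle by -4.46 (SE 1.25, adjusted p = 0.0317), lost without 429, 457, 513, 549 or 564 (adjusted p between 0.0538 and 0.0875). It was lower than in uninjured by -3.95 (SE 1.26, adjusted p = 0.0204), lost without 377 (change -1.79, adjusted p = 0.161), 513 or 549 (0.0563 and 0.0582). Vehicle against uninjured gave 0.51 (adjusted p = 0.684), and -0.13 without 457.

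Alpha-actinins anchor thin filaments at the Z disc: Actn2 is found in all fibres and Actn3 in the fastest. Actn2 was at 6.08, 8.66, 5.71 and 5.62 CPM in uninjured libraries 376, 377, 385 and 467. It was at 15.5, 2.96, 16.4 and 35.8 CPM in vehicle libraries 402, 428, 429 and 457, and at 4.55, 2.14, 1.47 and 2.85 CPM in tamoxifen libraries 452, 513, 549 and 564. Vehicle library 428 was below all 4 uninjured libraries. Actn2 rose in vehicle against uninjured by 1.45 (SE 0.51, adjusted p = 0.0304), lost without 376, 385, 467, 402, 429 or 457 (adjusted p between 0.0503 and 0.166, with a change of 0.83 without 457). In tamoxifen against vehicle it was lower by -2.73 (SE 0.56, adjusted p = 0.00878), a call kept in each of the 12 fits that left out 1 library, with -2.11 without 457. Tamoxifen against uninjured gave -1.28 (adjusted p = 0.0853).

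Actn3 was at 2.18, 72.6, 11.3 and 2.28 CPM in uninjured libraries 376, 377, 385 and 467. Its vehicle levels were 12.4, 1.48, 6.80 and 21.0 CPM in 402, 428, 429 and 457, and its tamoxifen levels 2.28, 1.40, 0.954 and 2.94 CPM in 452, 513, 549 and 564. Uninjured library 377 exceeded every vehicle library. Actn3 was lower in tamoxifen than in uninjured by -3.57 (SE 1.118, adjusted p = 0.0189), lost without 377 (change -1.50, adjusted p = 0.156), 513 or 549 (0.0519 and 0.0546). Tamoxifen against vehicle gave -2.50 (adjusted p = 0.144) and vehicle against uninjured -1.07 (adjusted p = 0.363; 0.99 without 377). Actn2 had 10.7% (8.85 to 12.8) of the counts of the pair in 377 and 33.7% (27.4 to 40.6) in 385, against 55.6% (49.5 to 61.5), 70.6% (64.7 to 75.9) and 63.0% (59.5 to 66.5) in 402, 429 and 457. High shares were not limited to those vehicle libraries. Uninjured libraries 376 and 467 had 73.6% (62.4 to 82.4) of 72 counts and 71.1% (61.0 to 79.5) of 90. Tamoxifen libraries ran from 49.2% in 564 to 66.7% in 452.

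Ldb3, a Z disc scaffold, had a high and even background. It was at 18.7, 32.1, 23.9 and 21.3 CPM in uninjured libraries 376, 377, 385 and 467, at 24.8, 19.1, 22.4 and 32.4 CPM in vehicle libraries 402, 428, 429 and 457, and at 20.0, 13.4, 11.5 and 15.1 CPM in tamoxifen libraries 452, 513, 549 and 564. Among tamoxifen libraries, 452 alone reached the range of the other groups. Ldb3 was lower in tamoxifen by -0.73 against vehicle (SE 0.21, adjusted p = 0.0335) and by -0.69 against uninjured (SE 0.21, adjusted p = 0.0157). The first was lost without 402, 429, 457, 513, 549 or 564 (adjusted p between 0.0505 and 0.0947), the second without 377 or 549 (0.0570 and 0.0519).

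Of the other Z disc and M band members, Myot and Myoz1 passed the test in tamoxifen against vehicle. Myot, myotilin, was at 0 in libraries 376, 467, 428, 549 and 564 and at 5.06 to 11.8 CPM in 377, 402, 429 and 457, with a change of -6.14 (adjusted p = 0.0254, up to 0.0762 without 564). Myoz1, a calcineurin-binding Z disc protein, reached 9.56 CPM in 457 and 9.43 CPM in 377, with a change of -5.37 (adjusted p = 0.0456, up to 0.111 without 457) and of -4.74 against uninjured (adjusted p = 0.0384, up to 0.252 without 377). Tcap, Myom1 and Myom2 passed no comparison; their highest levels were 16.7, 17.9 and 23.9 CPM, in libraries 377, 457 and 457.

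Genes of calcium release and uptake were highest in uninjured library 377, except for Casq1. Ryr1, the calcium release channel, was at 2.41, 66.3, 12.4 and 3.07 CPM in uninjured libraries 376, 377, 385 and 467. It was at 13.3, 1.73, 13.04 and 38.3 CPM in vehicle libraries 402, 428, 429 and 457, and at 2.40, 1.58, 0.954 and 2.11 CPM in tamoxifen libraries 452, 513, 549 and 564. The tamoxifen values all fell below the uninjured ones, with 376 and 452 almost equal. Ryr1 was lower in tamoxifen than in uninjured by -3.61 (SE 1.119, adjusted p = 0.0178), lost without 377 (change -1.80, adjusted p = 0.116) or 549 (0.0520). Tamoxifen against vehicle gave -3.28 (adjusted p = 0.0630) and vehicle against uninjured -0.33 (adjusted p = 0.785; 1.47 without 377).

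Atp2a1, the calcium pump of fast fibres, was at 0.459, 186, 28.4 and 0.439 CPM in uninjured libraries 376, 377, 385 and 467. Vehicle libraries 402, 428, 429 and 457 held 38.0, 1.11, 24.8 and 79.3 CPM, and tamoxifen libraries 452, 513, 549 and 564 held 0.719, 0.839, 0.434 and 3.40 CPM. Only library 564 of the tamoxifen group exceeded vehicle library 428. Atp2a1 was lower in tamoxifen than in uninjured by -5.30 (SE 1.68, adjusted p = 0.0201), lost without 377 (change -2.86, adjusted p = 0.134), 513 or 549 (0.0549 and 0.0562). Against vehicle the change was -4.72 (adjusted p = 0.0732), and vehicle against uninjured gave -0.58 (adjusted p = 0.714; 1.86 without 377).

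Cacna1s, the voltage sensor of the transverse tubules, reached 20.3 CPM in 377 and passed no comparison. Casq1, which stores calcium in fast fibres, was at 1.80 to 2.34 CPM in the tamoxifen libraries and at 2.47 to 26.2 CPM in the vehicle libraries, with no overlap. It was lower in tamoxifen than in vehicle by -2.64 (SE 0.79, adjusted p = 0.0412), lost without any 1 of 8 libraries (adjusted p of up to 0.115, without 457).

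Mb, myoglobin, the oxygen store of oxidative fibres, was higher in vehicle lesions than in either other group. It was at 0.689, 2.57, 1.49 and 1.05 CPM in uninjured libraries 376, 377, 385 and 467. Vehicle libraries 402, 428, 429 and 457 held 23.2, 1.48, 19.3 and 53.9 CPM, and tamoxifen libraries 452, 513, 549 and 564 held 0.959, 1.21, 0.520 and 1.29 CPM. Every vehicle library exceeded every tamoxifen library, while vehicle library 428 lay within the uninjured range. Mb rose in vehicle against uninjured by 4.05 (SE 0.76, adjusted p = 0.000706), from 3.29 without 457 to 4.47 without 377. It was lower in tamoxifen than in vehicle by -4.63 (SE 0.80, adjusted p = 0.00461), from -5.00 without 428 to -3.88 without 457. Tamoxifen against uninjured gave -0.58 (adjusted p = 0.650).

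Ckm, muscle creatine kinase, which buffers ATP, was at 0.115, 66.8, 10.7 and 0.0878 CPM in uninjured libraries 376, 377, 385 and 467. It was at 16.8, 0.123, 7.44 and 28.2 CPM in vehicle libraries 402, 428, 429 and 457, and at 0.120, 0.559, 0 and 0.918 CPM in tamoxifen libraries 452, 513, 549 and 564. Uninjured library 377 exceeded every vehicle library. Ckm was lower in tamoxifen than in uninjured by -5.54 (SE 1.79, adjusted p = 0.0218), lost without 377 (change -3.16, adjusted p = 0.139), 513 or 549 (0.0527 and 0.0596), and the change was -6.35 without 564. Against vehicle it was -4.99 (SE 1.82, adjusted p = 0.0773), and vehicle against uninjured gave -0.55 (adjusted p = 0.725; 1.83 without 377).

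Pygm was nearly even at a high level. It was at 160.1, 205, 167 and 153 CPM in uninjured libraries 376, 377, 385 and 467, at 138 to 145 CPM in the 4 vehicle libraries, and at 151, 149.9, 152 and 116 CPM in tamoxifen libraries 452, 513, 549 and 564. Every uninjured library exceeded every library of either lesion group. Pygm was lower by -0.28 in vehicle (SE 0.10, adjusted p = 0.0343) and by -0.27 in tamoxifen (SE 0.10, adjusted p = 0.0399), each against uninjured. These calls were lost without 377 (adjusted p of 0.119 and 0.129), 385 (0.0557 and 0.0618), 402 (0.0520, the first) and 513 or 564 (0.0521 and 0.0993, the second). Eno3, muscle enolase, was lower in tamoxifen than in vehicle by -1.69 (SE 0.49, adjusted p = 0.0362), lost without any 1 of 6 libraries (adjusted p of up to 0.101, without 457).

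Between vehicle lesions and uninjured cord, 6 of the 31 members tested rose (Myh1, Myh2, Mybpc1, Tnnt1, Actn2 and Mb) and 1 fell (Pygm), beside 50.8% of all genes called in this comparison (26.7% higher and 24.1% lower). The members' share was thus below the background. Genes typical of fast fibres lay on both sides of 0 without passing: Myh4, Mybpc2, Actn3, Atp2a1 and Ckm had log2 changes from -2.96 to -0.55 (from -0.75 to 1.86 without library 377), and Tnnt3, Tnni2, Casq1, Mylpf and Myl1 had 0.49, 0.65, 0.67, 1.07 and 1.60. Slow Myh7 and Tnni1 had -0.38 and 1.17, also short of the threshold. Besides the libraries named above, the call of Myh1 was lost with DESeq2 (adjusted p = 0.0649) and with a sex term (0.0778). Those of Actn2 and Pygm were lost with the sex term (0.0715 and 0.147) and with limma on log2 FPKM (0.106 and 0.158, and 0.233 and 0.234, with 1 and 0.1 added). The median log2 change was 0.66 over the members and 0.02 over all genes. The number of members called moved from 7 to 18 without library 377, all higher, and to 4 without 385 or 457. These fits tested 31 or 32 members and called 23.2% to 23.4% of all genes higher and 21.25% to 23.2% lower.

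Between tamoxifen and vehicle lesions, 14 of 31 members fell and 0 rose, beside 16.1% of all genes called (7.79% higher and 8.33% lower). DESeq2 called 22 members lower and 0 higher of 34, beside 6.39% and 6.57% of all genes in its fit. At an unadjusted p below 0.05, edgeR's test had 26 members lower and 0 higher, with no share of all genes taken at that limit. The median log2 change was -3.35 over the members and 0.00 over all genes. In 5 members (Myh1, Mybpc2, Ttn, Casq1 and Mb) the groups did not overlap, beside 8.77% of all genes with every tamoxifen library below every vehicle library, and in 0 members was every tamoxifen library above (7.68% of all genes). The count was 5 without library 457, 513 or 564, 7 without 429 or 549, 8 without 402, 22 without 428 and 26 without uninjured library 377. These fits tested 31 or 32 members and called from 3.75% (without 513) to 8.20% (without 428) of all genes lower.

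Between tamoxifen lesions and uninjured cord, 12 of 31 members fell and 0 rose, beside 48.9% of all genes called (26.3% higher and 22.7% lower). DESeq2 called 18 members lower and 0 higher of 34, beside 14.25% and 16.6% of all genes in its fit. At an unadjusted p below 0.05, edgeR's test had 19 members lower and 0 higher, with no share of all genes taken at that limit. The median log2 change was -2.72 over the members and 0.01 over all genes. In 4 members (Mybpc2, Actn2, Ryr1 and Pygm) every tamoxifen library was below every uninjured one, beside 19.7% of all genes. One call was left without library 377, 3 without 549, 4 without 513 and 8 without 564, and 19 were made without 428. These fits tested 32 members and called from 18.15% (without 513) to 23.1% (without 428) of all genes lower. The 3 comparisons share their libraries: the tamoxifen libraries enter both of the last pair, and each reference group enters a second comparison.

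**Figure D3:**
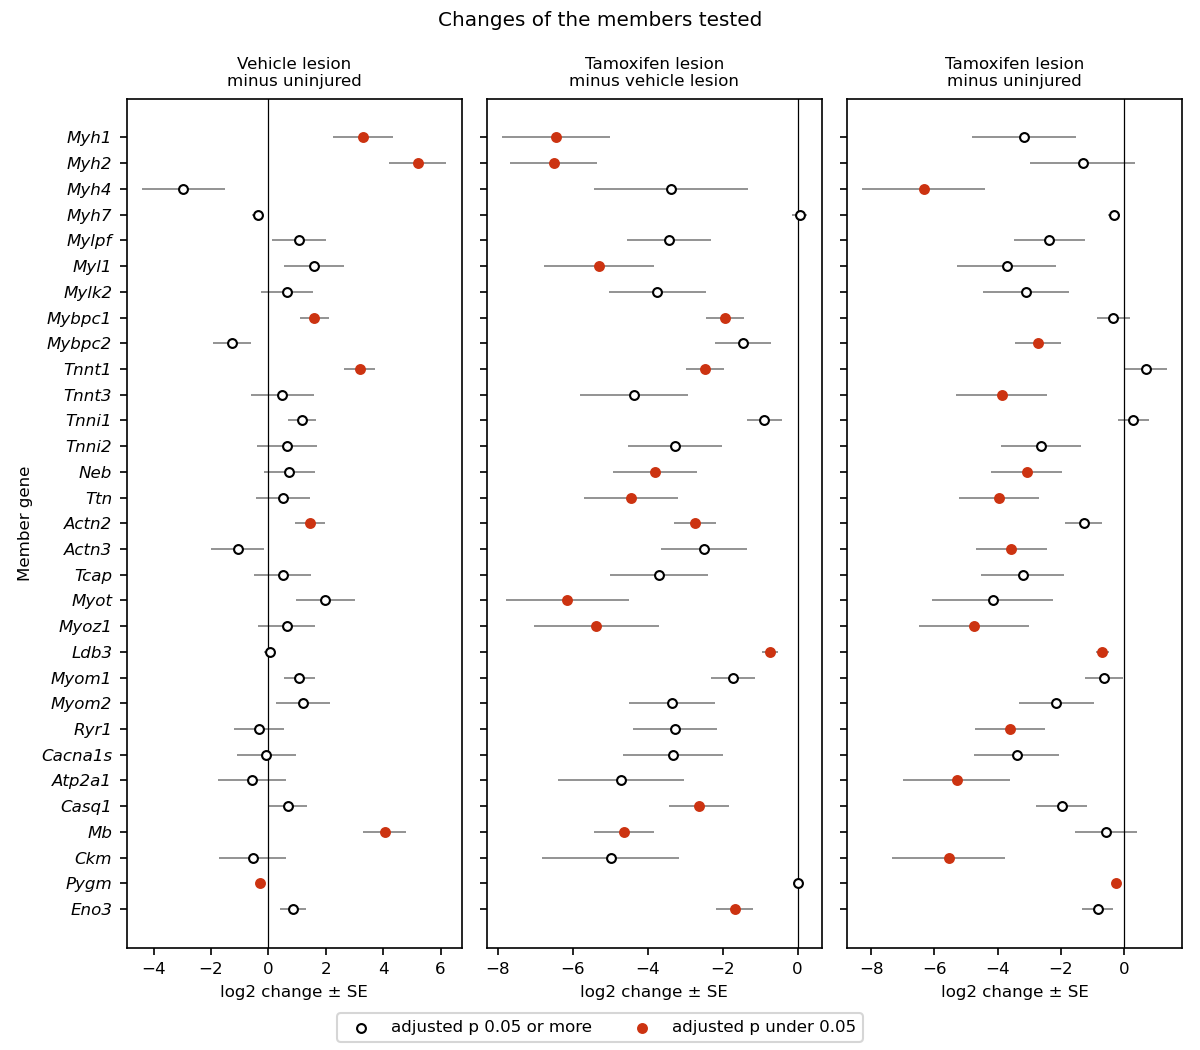
Log2 change ± SE of each of the 31 members tested (y axis) in the 3 comparisons (panels), from the edgeR fit. Filled points have an adjusted p under 0.05; all filled points of the middle and right panels lie below 0, and in the left panel 6 lie above 0 and Pygm below.

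Sample name series and sex were not balanced over the groups. Tamoxifen libraries 513, 549 and 564 carry sample names from 106 on, and the other 9 libraries lower ones. A term for this series leaves library 452 as the tamoxifen group, so calls from that fit are not given. The members' median log2 changes with it were -3.40 against vehicle and -2.47 against uninjured. The 424 genes of 15181 whose ratio of counts to FPKM stepped between the series held none of the 30 members compared. A step needed a log2 shift over 0.5 and no overlap of libraries. Myl1, Myot and Cacna1s shifted by 0.90, 0.92 and -0.56 and did not meet the overlap rule. Tnnc1, which was not tested, was not among the genes compared. By Xist and Y-linked transcripts, 1 uninjured, 3 vehicle and 0 tamoxifen mice were male. With a term for sex, 3 members were lower in tamoxifen than in vehicle (Mb, Myh2 and Actn2), beside 3.56% of all genes. The members' median change was -4.47. The part of sex in these results was not tested beyond this term.

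Vehicle library 428 was below every other vehicle library in 30 of the 31 members. Of the tamoxifen libraries, 549 was below all 4 vehicle libraries in 26 members, 513 in 20, 452 in 14 and 564 in 13. Library 428 in turn was below the highest tamoxifen library in 26. The difference between the lesion groups thus rested on vehicle libraries 402, 429 and 457.

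The fullest library of each of the 2 groups that had such libraries was compared directly, which compares those libraries and not the conditions. Library 457 held the highest level of 17 members, 377 of 13 and 376 of 1 (Myh7). Ttn (83.6 against 95.6 CPM), Neb (57.9 against 53.1), Tnnt3 (77.6 against 85.8), Tnni2 (34.2 against 36.9) and Acta1 (188 against 187) were close between 457 and 377. Those genes were named because they were close, and others were not. Myl1 and Myom2 were 2.15 and 1.835 times as high in 457, and Ryr1 and Cacna1s 1.73 and 1.59 times as high in 377. Library 457 held 26.2 times as much Myh2, 21.0 times as much Mb, 11.9 times as much Tnnt1 and 4.14 times as much Actn2. Library 377 held 9.00 times as much Myh4, 4.12 times as much Mybpc2, 3.46 times as much Actn3, 2.37 times as much Ckm and 2.35 times as much Atp2a1. Each gene given a ratio here had at least 7 counts in the library where it was lower.

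**Figure D4:**
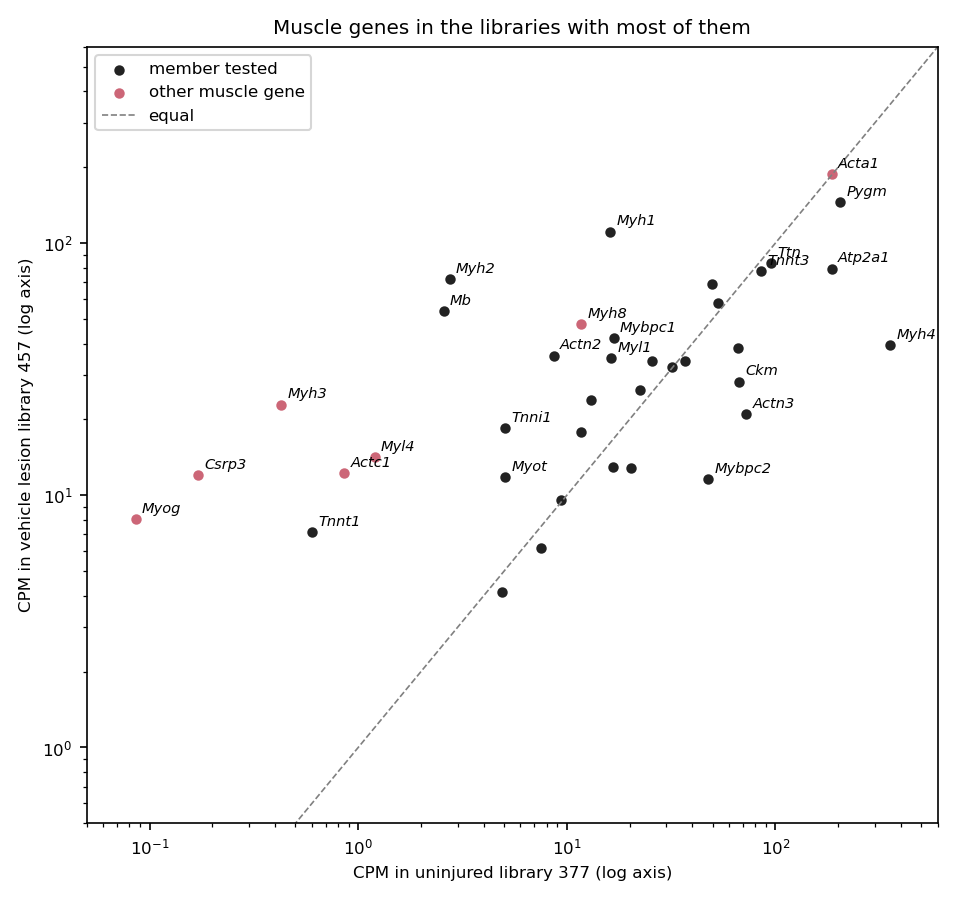
CPM of the 31 members tested (black) and 7 other muscle genes (red) in uninjured library 377 (x axis, log scale) and vehicle lesion library 457 (y axis, log scale), with a dashed line of equal levels. Ttn, Tnnt3 and Acta1 lie near the line, Myh4, Mybpc2, Actn3, Ckm and Atp2a1 below it, and Myh2, Mb, Tnnt1, Actn2 and the developmental genes Myh3, Myog, Csrp3, Myl4 and Actc1 above it.

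Among genes of developing and regenerating fibres, Myh3 and Myl4 rose in vehicle lesions and the other members tested did not pass. Myh3, embryonic myosin, was at 1.38, 0.429, 0.439 and 0.263 CPM in uninjured libraries 376, 377, 385 and 467. Vehicle libraries 402, 428, 429 and 457 held 17.1, 0.494, 16.3 and 22.9 CPM, and the 4 tamoxifen libraries 0.551 to 2.33 CPM. The 3 muscle-rich vehicle libraries were again above all others. Of the 4 tested of 7 listed genes, 2 rose in vehicle against uninjured, beside 26.7% of all genes: Myh3 by 4.58 (adjusted p = 0.000623) and Myl4, the embryonic light chain, by 2.45 (adjusted p = 0.000724). Perinatal Myh8 gave 2.41 (adjusted p = 0.0505), with 11.7 CPM in uninjured 377 and 14.1 CPM in vehicle 402, and Tnnt2, the cardiac and embryonic troponin T, gave 0.60 (adjusted p = 0.172). Against vehicle, tamoxifen was lower for Myh3 (-3.53, adjusted p = 0.0107), Myl4 (-1.92, adjusted p = 0.0141) and Myh8 (-4.75, adjusted p = 0.0201), and Tnnt2 did not pass (-0.95, adjusted p = 0.0871). Of Myh1, Myh2, Myh4, Myh3 and Myh8 counts, Myh3 and Myh8 had 13.1% and 10.8% in 402, 15.1% and 19.9% in 429, and 7.81% and 16.3% in 457, against 0.111% and 3.04% in 377 and 0.612% and 2.20% in 385.

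Of 7 regulators of muscle formation, 1 passed the filter. Myog, myogenin, had 21, 0, 41 and 103 counts in vehicle libraries 402, 428, 429 and 457, and at most 1 count in each of the other 8 libraries. Myod1 reached 2.82 CPM in 457 and 1.10 CPM in 429 and was at 0 in 377. Pax7, which marks satellite cells, stayed at or below 0.392 CPM throughout. The regulator tested was Pax3, with 2.57 CPM in 377 and 2.59 CPM in 457, and its changes of 0.49, 0.04 and 0.53 in the 3 comparisons did not pass the test (adjusted p = 0.0699, 0.921 and 0.0542).

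Of 40 other genes of mature fibres, 29 were tested. In vehicle against uninjured 9 rose and 2 fell (median 0.93), beside 26.7% and 24.1% of all genes. The share that fell was below the background, and the share that rose was not. In tamoxifen against vehicle 0 rose and 16 fell (median -1.73), beside 7.79% and 8.33%. Those with the smallest p in the latter were Capn3, a muscle protease (-0.74, adjusted p = 0.0169), Art1, an ADP-ribosyltransferase (-3.73, adjusted p = 0.0172), Myoz2, a Z disc protein of slow fibres (-2.57, adjusted p = 0.0175), and Klhl41 (-4.39, adjusted p = 0.0185). Capn3 did not follow the muscle-rich libraries: it was at 17.4 CPM in vehicle library 428 and 15.6 CPM in tamoxifen library 452, against 7.03 CPM in uninjured library 377. Myoz2 rose in vehicle against uninjured by 3.08 (adjusted p = 0.00171). In tamoxifen against uninjured 2 rose, Capn3 among them (0.79, adjusted p = 0.00419), and 8 fell, beside 26.3% and 22.7%.

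Among the genes whose profile over the 12 libraries was closest to the mean of the members were Hrc, 1110002E22Rik, Des, Kbtbd10, Cacng1, Hfe2, Acta1, Jph2 and Synpo2l. The measure was the root mean square distance of centred log2 CPM among 15940 genes with a mean of at least 1 CPM, which ran from 0.438 for Hrc to 0.944 for Synpo2l, with a median of 1.88 over all genes and of 1.17 for the members themselves. Hrc and Kbtbd10 (an older symbol of Klhl41) are also in the list of other mature fibre genes.

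The summed markers of fat and of tendon were highest in vehicle libraries 402, 429 and 457, though not every listed gene was. The 6 fat genes summed to 49.3, 19.5 and 51.4 CPM in vehicle libraries 402, 429 and 457, against 3.58 CPM in 428, 3.86 to 15.8 CPM in the uninjured group and 2.57 to 5.41 CPM in the tamoxifen group. The 7 tendon and ligament genes summed to 245, 256 and 360 CPM in 402, 429 and 457, 149.5 CPM in 428, 39.4 to 162 CPM in the uninjured and 86.4 to 131 CPM in the tamoxifen group. Uninjured libraries 377 and 385, rich in muscle transcripts, were within the range of 376 and 467 for the tendon sum (152 and 105 CPM). Fmod was the largest part of that sum, at 127, 115, 73.0 and 16.1 CPM in 376, 377, 385 and 467, so the range largely reflects this gene. The tendon gene Scx was not raised in 402, 429 and 457 (6.31, 4.32 and 5.17 CPM, against 5.62 to 6.94 CPM in the uninjured group). Fat markers were 15.8 CPM in 377 and 4.75 CPM in 385. The part of these tissues in the muscle results was not tested.

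In tamoxifen against vehicle 4 of 5 fat genes tested fell, beside 8.33% of all genes. They were Fabp4, a fatty acid carrier (-2.82, adjusted p = 0.0152), Cfd (-4.68, 0.0195), Adipoq (-3.81, 0.0274) and Plin1 (-3.44, 0.0437). Of 7 tendon genes tested 3 fell: Thbs4 (-5.69, adjusted p = 0.00225), Comp (-3.28, 0.00712) and Tnmd (-2.47, 0.0131), while Cilp did not pass (-1.73, 0.168). In vehicle against uninjured 4 of the 7 tendon genes rose and 1 fell, beside 26.7% and 24.1% of all genes. Thbs4 rose by 4.92 (adjusted p = 0.000220) and Comp by 3.60 (0.000612). Both were above all uninjured libraries in all 4 vehicle libraries, 428 included, beside 26.3% of all genes. Mkx went the other way, at 9.72 to 11.5 CPM in the vehicle and 14.05 to 16.3 CPM in the uninjured libraries. Of cartilage and bone genes, Ibsp (-4.89, adjusted p = 0.0220) and Acan (-0.31, 0.0244) fell and Bglap (-3.19, 0.0726) and Sp7 (-0.31, 0.139) did not pass.

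Cardiac, smooth muscle, nerve and blood markers did not follow the muscle-rich libraries in the same way. The cardiac genes Nppa and Myl7 were at or below 0.230 CPM in every library. Tnni3 (-1.32, adjusted p = 0.0179) and Myh6 (-0.86, 0.0436) were lower in tamoxifen than in vehicle, and Ryr2 (-0.31, 0.193) and Mybpc3 (-0.40, 0.691) did not pass. The 10 smooth muscle genes summed to 70.4 to 119 CPM in the uninjured, 184 to 277 CPM in the vehicle and 139.5 to 249.5 CPM in the tamoxifen group, with 216 CPM in muscle-poor library 428. Of these Smtn (-0.88, adjusted p = 0.00868) and Myh11 (-0.92, 0.0331) were lower in tamoxifen than in vehicle, and Synpo2 (-0.40, 0.105) and Acta2 (-0.41, 0.304) did not pass.

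Nerve root and Schwann cell genes summed to 668 to 899.7 CPM in the uninjured group, 899.7 to 1115 CPM in the vehicle group, highest in 428, and 831 to 874 CPM in the tamoxifen group. Egr2 was lower in tamoxifen than in vehicle (-1.28, adjusted p = 0.0368), and Foxd3 (-0.88, 0.0549), Ncmap (-0.79, 0.168) and Pmp2 (-0.88, 0.202) did not pass. No blood gene passed any comparison; in tamoxifen against vehicle Hba-a1, Hbb-b2, Alas2 and Hbb-b1 had changes of 1.62, 1.40, 0.44 and 0.43 (adjusted p between 0.230 and 0.718). No cord marker passed between tamoxifen and vehicle either, with Snap25, Slc17a6 and Slc32a1 at 0.36, 0.37 and 0.30 (adjusted p between 0.0534 and 0.129).

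**Figure D5:**
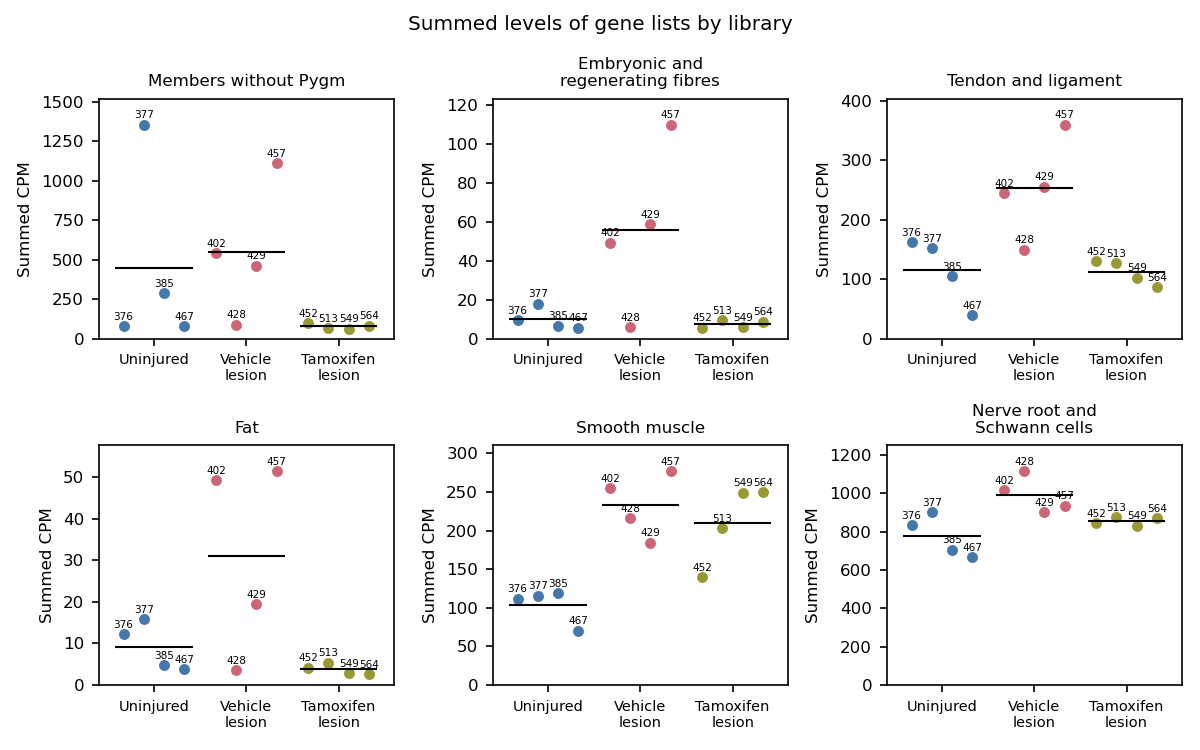
Summed TMM-normalised CPM of 6 gene lists (panels) in each library (points, labelled by mouse number) by group, with a line at the mean of 4 libraries. Libraries 402, 429 and 457 are the highest in the panels of embryonic and regenerating fibres, tendon and fat, library 377 leads the members without Pygm, and library 428 leads the nerve root panel.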

How the data were processed

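RNA-seq of 12 cord pieces, 3 groups of 4, was deposited as raw counts per Ensembl gene (the authors' count table, checked to hold whole numbers) and as the authors' FPKM. Per the submitters' processing notes the build was mm9 and the tools TopHat, Picard, Cufflinks and HTSeq; no source used here gives their versions, whether strand was used or how ambiguous reads were counted. The members and gene lists were chosen with earlier results of these data known. Samples were grouped by their labels, and nothing says whether pieces were pooled. The count test was edgeR 4.0.16's quasi-likelihood test (R 4.3.3) after filterByExpr (minimum count 10, minimum total 15) and TMM scaling; all 3 groups entered 1 model with 9 residual degrees of freedom, and two-sided p-values carry a Benjamini-Hochberg adjustment for the 16473 genes tested. The script was tested on simulated data. Log2 CPM adds 0.5 count. Alternatives were DESeq2 1.42.0, limma 3.58.1 on log2 FPKM (1 or 0.1 added; mean FPKM of at least 0.1), other scalings and filters, terms for sex and sample name series, the 8 libraries compared and each library left out. The sum without Pygm, the isoform pairs and the family with Myh3 and Myh8 were chosen after seeing the data. Genes given values in every library were 14 set names and up to 6 called members with the smallest p per comparison, plus Pygm, Tnnc2 and Myh3; of other lists, up to 4 with the smallest p in tamoxifen against vehicle, and Myog, Myod1, Pax7, Nppa and Myl7, were named; some genes these rules pick are not reported here. The labels name no molecular identifiers, so intervals cover counting error only. Promoters are from RefSeq on GRCm38.p6, matched by symbol for 25 of 34 members; no position on mm9 is given.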

Additional observations from a re-analysis of the deposited data

Results flagged for a closer look

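Within groups of 4, values far from the other 3 (Dixon's test at 95% on log2 CPM, which chance flags in about 1 of 20 groups) were found in 4 of 93 combinations of member and group. In the vehicle group, library 428 was far below the others for Mylk2 (0 CPM), Myot (0 CPM) and Mybpc1 (5.308 CPM). In the tamoxifen group, library 564 was far below the others for Pygm (115.7 CPM). On the linear CPM scale 17 combinations would pass the same limit.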

How the results depend on the processing

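No paired analysis was possible because the groups share no mouse number. In vehicle against uninjured, 7 members were called (6 higher, 1 lower). The number was 4 with a stricter filter (3 higher; 18 tested) and 4 with a sex term. The number lower was 0 with log2 FPKM + 1, with log2 FPKM + 0.1 and with the sex term, and 2 with the 8 libraries compared. Leaving out 1 library gave 4 to 18 called, 3 to 18 higher and 0 to 2 lower. In tamoxifen against vehicle, where 14 were lower, the number was 8 with the stricter filter, 22 with DESeq2 and 8 with robust empirical Bayes. It was 6 and 5 with log2 FPKM + 1 and + 0.1 and 3 with the sex term. The share of all genes lower at these settings ran from 3.28% (log2 FPKM + 0.1) to 8.52% (stricter filter). Leaving out 1 library gave 5 to 26, and the median change was -1.39 with log2 FPKM + 1. In tamoxifen against uninjured, where 12 were lower, it was 1 with either FPKM setting, beside 16.07% and 15.95% of all genes lower. Leaving out 1 library gave 1 to 19, and the median was -0.55 with log2 FPKM + 1. The causes were not tested, except that a pseudocount shrinks low values. The series term leaves 1 tamoxifen library, so calls with it are not counted here.

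Changes of sign among the genes described were in comparisons that had not passed. In vehicle against uninjured, with log2 FPKM + 1, log2 FPKM + 0.1 and the sex term, Atp2a1 gave 0.510, 0.899 and 0.980 and Ckm 0.863, 1.65 and 0.722. Ryr1 gave 0.211 with log2 FPKM + 0.1 and 0.525 with the sex term, and Actn3 0.136 with log2 FPKM + 0.1. In tamoxifen against uninjured, Mybpc1 gave 0.0251 with log2 FPKM + 0.1, and with the series term Myh7 gave 0.0246 and Tnnt1 -0.276. Myh7 gave -0.00891 in tamoxifen against vehicle with the sex term. With 1 library left out, the vehicle against uninjured changes ran from -1.61 to 0.00177 for Mybpc2, -1.69 to 0.990 for Actn3, -1.17 to 1.47 for Ryr1, -1.34 to 1.86 for Atp2a1 and -1.27 to 1.83 for Ckm. They ran from -0.221 to 2.61 for Tnnt3, -0.128 to 2.66 for Ttn and -0.137 to 0.213 for Ldb3. In all 8 ranges the lower end was without library 457 and the upper end without 377. In tamoxifen against uninjured the range was -1.83 to 0.146 for Myh2 and -0.569 to 0.136 for Mybpc1, and for Myh7 in tamoxifen against vehicle it was -0.0725 to 0.180.

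Of all FPKM, the members had 0.193% in 457 and 0.0191%, 0.0182% and 0.0174% in 513, 549 and 564. By FPKM the Myh1 share of the 4 adult myosins was 6.61% in 377, 9.37% in 385, 72.3% in 402, 50.3% in 429, 64.7% in 457 and 12.1% in 564. The Myh2 share was 0.978% and 1.47% in 377 and 385, the Myh4 share 81.0% in 385, and the Myh7 share 2.99% and 3.81% in 402 and 429. Genes with few counts limit the precision: in the low libraries most members had under 5 CPM.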
